A study of Mus musculus with 36 samples.

Results

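The CC chemokines described here are the 10 genes Ccl2, Ccl3, Ccl4, Ccl5, Ccl7, Ccl12, Ccl20, Ccl22, Ccl25 and Ccl28, fixed as a list of symbols and found, through the Ensembl identifiers that GENCODE pairs with them, among the 52636 genes of each count file. Transcripts were sequenced in whole intestines of E18.5 mouse embryos and in primary mouse embryonic fibroblasts (MEFs) from E14.5 embryos whose head and internal organs had been removed, with 3 libraries for each of 12 groups and no treatment. Caspase-8 D387A (the Casp8 1xDA allele) cannot be cleaved at an autoprocessing site, caspase-8 C362A is catalytically inactive, and Cflar encodes cFLIP, the partner of caspase-8. The D387A set of intestines comprised Mlkl-/-, Casp8 1xDA/1xDA with no other deletion, the same allele with Cflar and Mlkl deleted (Casp8 1xDA/1xDA Cflar-/- Mlkl-/-), and this last genotype further lacking Casp1, Casp1 and Ifnar1, or Casp1 and Fadd. The C362A set comprised its own Mlkl-/- intestines, Casp8 C362A/C362A Mlkl-/-, the same with Casp1 deleted, and Casp8 C362A/C362A Cflar-/- Mlkl-/-, and the MEFs were Mlkl-/- or Casp8 1xDA/1xDA Cflar-/- Mlkl-/-. Every group except Casp8 1xDA/1xDA lacked Mlkl, the effector of necroptosis, so the controls were Mlkl-/- and not wild type. No group lacked only Mlkl and Casp1, hence each comparison of a Casp1-deficient genotype with Mlkl-/- also differed in Casp1. Below, controls are the Mlkl-/- libraries of the same set, Cflar-deficient 1xDA stands for Casp8 1xDA/1xDA Cflar-/- Mlkl-/-, and C362A intestines stands for Casp8 C362A/C362A Mlkl-/-.

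Chemokines of the CC family are small secreted proteins that bind G protein-coupled receptors and set the direction in which leukocytes migrate. Ccl2, Ccl7 and Ccl12 are ligands of CCR2 that recruit monocytes, Ccl3, Ccl4 and Ccl5 attract macrophages, T cells and NK cells, and Ccl22, a product of dendritic cells and macrophages, acts on CCR4. In the gut, epithelial cells make Ccl20, the ligand of CCR6, Ccl25, the ligand of CCR9, and Ccl28, the ligand of CCR10, and the first of these is an inducible target of NF-kB whereas the other two are largely produced without inflammation. In the mouse genome (GRCm38), 6 members lay in 2 clusters on chromosome 11, with Ccl2, Ccl7 and Ccl12 at 82035571 to 82305690 beside Ccl11, Ccl8 and Ccl1, and Ccl5, Ccl3 and Ccl4 at 83525778 to 83664683 beside Ccl9 and Ccl6. Ccl20 lies on chromosome 1 (83116766 to 83119167), Ccl22 and Ccl25 on chromosome 8 (94745590 to 94751699 and 4325210 to 4360020) and Ccl28 on chromosome 13 (119623819 to 119654359). All are protein-coding genes.

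The 250 bases before the start site are shown for the epithelial members, because Ccl20 was called higher in 7 of the 8 intestinal comparisons with Mlkl-/- below, while Ccl25 and Ccl28 were called higher in none of them. The sequences are those of RefSeq on GRCm38.p6 (each on the plus strand, 5′ to 3′), and capitals mark a match to the NF-kB consensus. For Ccl25, which has 2 RefSeq start sites, the window before the downstream start is given. The windows are chr1:83116516-83116765, chr8:4349338-4349587 and chr13:119623569-119623818.
Ccl20: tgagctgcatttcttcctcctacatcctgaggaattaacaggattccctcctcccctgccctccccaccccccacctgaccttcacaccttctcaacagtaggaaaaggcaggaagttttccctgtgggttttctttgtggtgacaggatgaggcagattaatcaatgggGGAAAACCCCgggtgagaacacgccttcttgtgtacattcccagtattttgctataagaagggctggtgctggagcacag
Ccl25: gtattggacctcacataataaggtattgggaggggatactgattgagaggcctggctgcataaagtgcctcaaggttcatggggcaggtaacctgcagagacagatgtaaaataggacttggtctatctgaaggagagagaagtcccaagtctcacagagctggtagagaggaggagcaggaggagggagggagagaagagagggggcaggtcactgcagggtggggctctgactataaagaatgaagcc
Ccl28: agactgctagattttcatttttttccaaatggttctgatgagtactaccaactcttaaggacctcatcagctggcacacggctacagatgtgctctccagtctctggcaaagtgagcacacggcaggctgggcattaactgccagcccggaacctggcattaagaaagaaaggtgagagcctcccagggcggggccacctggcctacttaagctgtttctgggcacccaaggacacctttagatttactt
The Ccl20 window held 1 match to the NF-kB consensus, on the minus strand, whose first base in the printed direction was at -80 from the start site. Both strands were searched, and the match shared no base with another motif. Such a match was present in 1281 of 32851 windows of this length in the RefSeq table (3.9%). No match was found in the windows of Ccl3, Ccl12, Ccl22, Ccl25 or Ccl28, and the interferon response element core (GAAA, any 2 bases, GAAA), present in 2.98% of all windows, was found in none of the members' windows. Ccl2, Ccl4, Ccl5 and Ccl7 had no entry in the table. These matches describe letters only and were not tested against expression.

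Library depth ranged from 17943524 to 32307629 reads on genes, and levels are given as RPKM (reads per kilobase of gene, scaled to library size), computed from the deposited counts on TMM-scaled library sizes. The sets were scaled separately, hence levels in different sets are set side by side without a test. A gene was called when edgeR's quasi-likelihood test gave a change of more than 1 on the log2 scale, up or down (log2 fold change over 1 or under -1), and a Benjamini-Hochberg adjusted p under 0.05, and adjusted p-values below are of this kind. The deletions were checked first. Casp1 was at 0 to 0.142 RPKM in Casp1-deficient intestines and at 28.4 to 83.0 in the other intestines, Fadd was at 0.169 to 0.259 in Fadd-deficient and 6.53 to 12.9 in the other intestines, and Ifnar1 was at 8.5 to 9.70 in Ifnar1-deficient and 19.5 to 26.4 in the other intestines. Reads on Cflar and Mlkl did not separate the deficient libraries from the rest. Embryo 3 of the Casp1-deficient 1xDA genotype (lacking Cflar, Mlkl and Casp1) stood apart from the other two of its group, with Mlkl at 23.0 RPKM against 3.13 and 3.72 and Ccl5 at 15.4 against 2.14 and 1.61, and calls that it changes and called values that it moves by over 1.5 times are given with and without it. Epithelial transcripts (Epcam, Cdh1, Krt8, Krt18, Krt19 and Cldn7) summed to 1460 to 2660 RPKM in intestines and 24.9 to 43.1 in MEFs, and fibroblast transcripts (Col1a1, Col1a2, Col3a1, Pdgfra and Dcn) to 220 to 968 in intestines and 3820 to 4330 in MEFs.

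**Figure D1:**
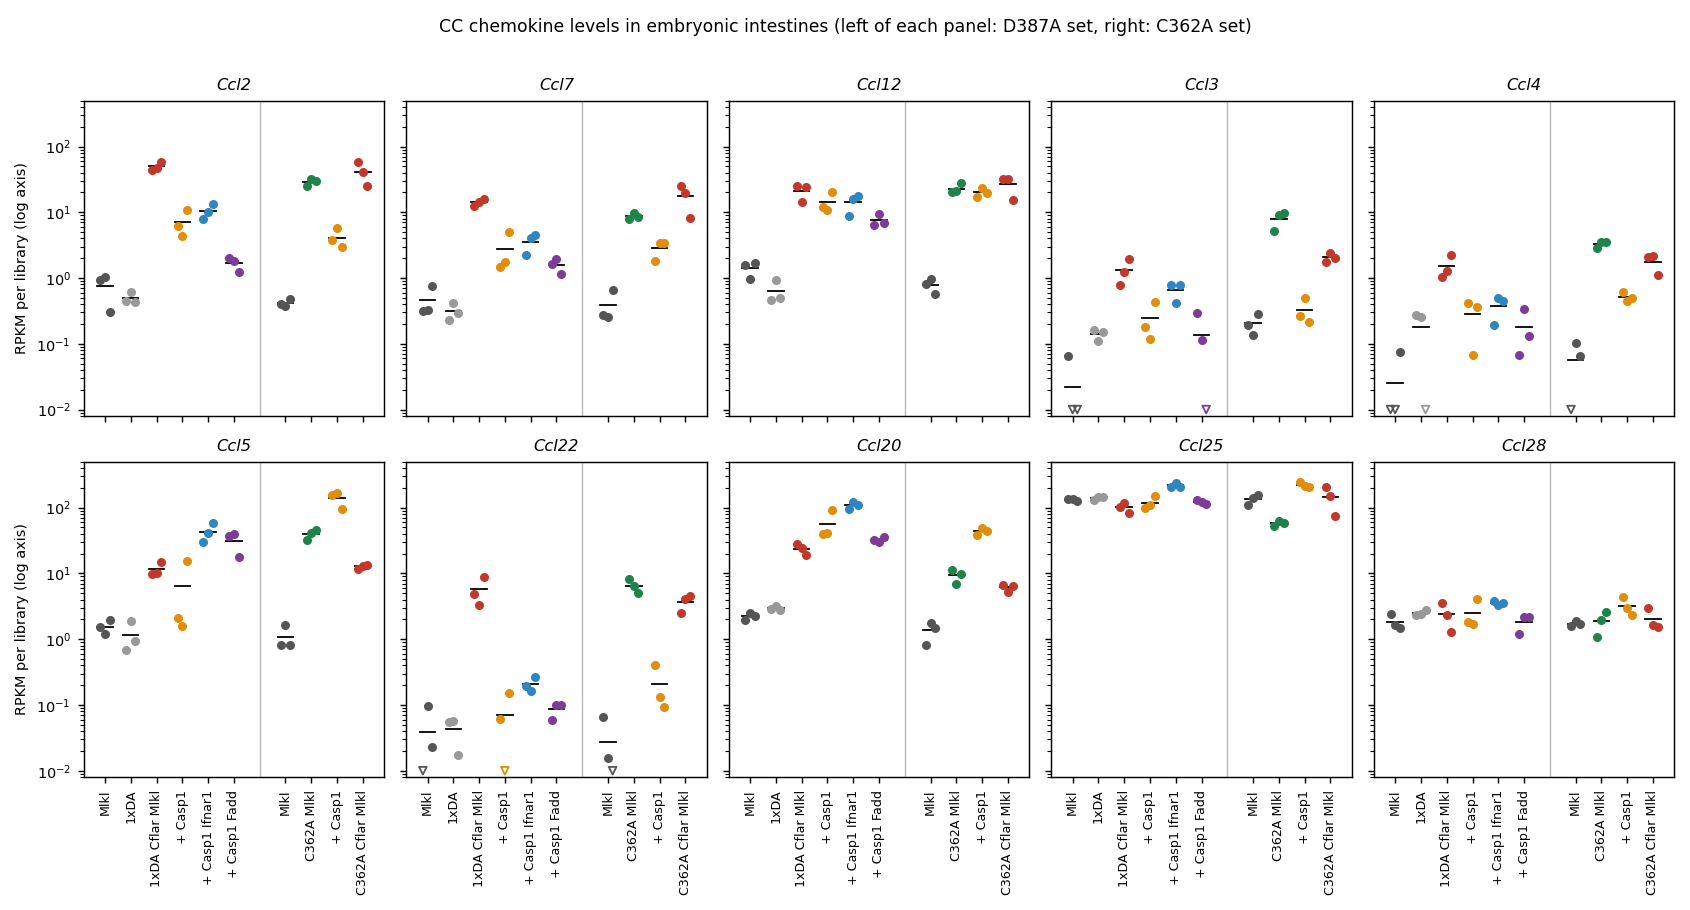
RPKM of each of the 10 CC chemokines in each intestinal library, on a log axis, by genotype, where a plus sign means that the named genes were deleted in addition (left of the grey line the D387A set, right of it the C362A set). Points are libraries, black bars are means of 3 and open triangles are libraries with no read. Ccl2 sat between 44.0 and 58.2 in Cflar-deficient 1xDA intestines and between 0.308 and 1.03 in controls, while Ccl28 lay between 1.09 and 4.31 in all 30 libraries.

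In Cflar-deficient 1xDA intestines, 8 of the 10 CC chemokines rose against controls, against 9.4% of 18360 genes tested, and the members without a call were Ccl25 and Ccl28. The median log2 fold change was 4.40 over the members and -0.0065 over all genes. In Casp8 1xDA/1xDA intestines, with Cflar and Mlkl intact, none of the 10 was called, where 0% of genes were called higher and 0.00545% lower. Of the 10, only Ccl12 had an unadjusted p under 0.05 there (log2 fold change -1.12, SE 0.529), and limma-voom and DESeq2 also called 0. In C362A intestines 8 members rose, against 10.4% of 19408 genes, and 1 fell, Ccl25, against 7.55%. In Casp8 C362A/C362A Cflar-/- Mlkl-/- intestines 8 rose, against 13.4% of genes. The 8 that rose were the same genes in the 3 comparisons, and the C362A comparisons shared their controls.

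Transcripts of other cells changed beside the chemokines, and in whole tissue fewer cells of a type and less RNA per cell cannot be told apart. Sums of 7 neutrophil transcripts (S100a8 and S100a9 among them) were 4.52 to 28.6 RPKM in D387A set controls and 61.9 to 233 in Cflar-deficient 1xDA intestines, and 11.4 to 27.7 without Casp1. They were 13.9 to 42.7 in C362A set controls, 542 to 679 in C362A intestines and 23.0 to 31.8 without Casp1. Of 6 tested, 5 rose and 1 fell in Cflar-deficient 1xDA intestines, 5 rose in C362A intestines, and 4 and 5 fell with Casp1 deleted. Sums of 9 macrophage and monocyte transcripts (Adgre1 and Csf1r among them) were 93.8 to 99.7 in D387A set controls, 117 to 160 in Cflar-deficient 1xDA, 122 to 191 in Casp1-deficient and 204 to 262 in Ifnar1-deficient intestines, and in the C362A set they were 88.2 to 107 in controls, 271 to 296 in C362A intestines and 136 to 145 without Casp1. Of these, 5 rose and 1 fell in Cflar-deficient 1xDA intestines and 5 rose in C362A intestines. Sums of 9 T and NK cell transcripts were 2.28 to 3.38 in D387A set controls, 13 to 20.2 in Cflar-deficient 1xDA and 2.39 to 3.55 in Casp1-deficient intestines, with 1 of 5 tested called higher in Cflar-deficient 1xDA intestines, the granzyme gene Gzmb (a mean of 0.408 in controls and 11.7 in the mutant), and in C362A intestines 5 of 7 tested rose. Sums of 6 dendritic cell transcripts were 2.53 to 3.22 in D387A set controls, 4.12 to 6.58 in Cflar-deficient 1xDA and 3.3 to 4.96 in Casp1-deficient intestines, and 2.77 to 3.06 in C362A set controls, 10.8 to 13.6 in C362A intestines and 3.90 to 4.68 without Casp1. Most of the difference in these sums was Itgax, which macrophages and NK cells also express, at a mean of 1.40 in C362A set controls and 10.1 in C362A intestines. Itgax was the 1 called of 3 tested in Cflar-deficient 1xDA intestines, and Itgax and Clec9a were the 2 of 4 in C362A intestines. Every neutrophil and macrophage marker had a read in C362A intestines, and 1 neutrophil marker (Elane) had none in Cflar-deficient 1xDA intestines. The part of these cells in the chemokine changes was not tested.

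The CCR2 ligands rose in all 3 of these comparisons. Ccl2, the principal monocyte attractant, was at 0.930, 1.03 and 0.308 RPKM in controls of the D387A set and at 44.0, 47.3 and 58.2 in Cflar-deficient 1xDA intestines. All 3 mutant libraries thus lay far above all controls, a log2 fold change of 6.03 (SE 0.372, adjusted p = 4.68e-10). In the C362A set Ccl2 went from 0.407, 0.381 and 0.483 to 25.4, 31.8 and 29.5 in C362A intestines (log2 fold change 6.08) and to 58.1, 40.3 and 25.2 when Cflar was also absent (6.60). Ccl7, its neighbour on chromosome 11, was at 0.315, 0.328 and 0.749 in D387A set controls and 12.4, 14.5 and 16.1 in Cflar-deficient 1xDA intestines, a log2 fold change of 4.92 (SE 0.447). Ccl12, further along that cluster, was at 1.6, 0.978 and 1.68 against 24.7, 14.4 and 24, a log2 fold change of 3.88 (SE 0.359). For each of these 3 genes the groups did not overlap. In C362A intestines Ccl7 was at 7.90, 9.87 and 8.48 against 0.276, 0.258 and 0.653 (4.50), and Ccl12 was at 20.1, 21 and 27.4 against 0.822, 0.961 and 0.568 (4.83).

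Ccl3, Ccl4 and Ccl5 also rose, from levels near or at no reads in the case of Ccl3 and Ccl4. In controls of the D387A set Ccl3 had 1 read over the 3 libraries and Ccl4 had 1, and in Cflar-deficient 1xDA intestines each had 72. Ccl3 was at 0.789, 1.23 and 1.93 RPKM in the mutants, with 0.0658 in 1 control and 0 in the others, and the ratio of reads per library size was 60.1 with an exact 95% interval of 10.4 to 2410 that covers counting error only. Ccl4 was at 1.05, 1.29 and 2.24, with 0.0758 in 1 control and 0 in the others. In C362A intestines Ccl3 reached 5.19, 8.97 and 9.67 against 0.192, 0.135 and 0.285 in controls, a log2 fold change of 5.28 (SE 0.377). Ccl4 reached 2.85, 3.56 and 3.56 there against 3 reads over the 3 controls, a ratio of 57.9 (19.5 to 283). Ccl5, made by T cells, NK cells and many cells after viral sensing, was at 1.52, 1.18 and 1.97 in D387A set controls and 9.66, 10.1 and 14.9 in Cflar-deficient 1xDA intestines, a log2 fold change of 2.88 (SE 0.685, adjusted p = 0.00156). Of the 8 that rose in this genotype, Ccl5 had the smallest log2 fold change. In C362A intestines Ccl5 was at 32.5, 41.0 and 46.1 against 0.830, 1.62 and 0.819, a log2 fold change of 5.16 (SE 0.287).

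Ccl22 had the largest fitted log2 fold change of the members in both genotypes with all libraries included. It was at 4.95, 3.37 and 8.93 RPKM in Cflar-deficient 1xDA intestines and at 0, 0.0948 and 0.0226 in controls (5 reads in all), a log2 fold change of 7.14 (SE 0.588). In C362A intestines it was at 8.24, 6.33 and 4.96 against 0.0664, 0.0155 and 0, a log2 fold change of 7.73 (SE 0.569). With so few control reads the size of these changes is poorly determined, and they were 8.71 without the second D387A set control and 9.21 without the first C362A set control. The order of the members rests on those few reads too, since in Cflar-deficient 1xDA intestines Ccl3 was at 7.52 without the first control and Ccl4 at 7.51 without the third.

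The epithelial chemokines differed from each other. Ccl20 was at 1.99, 2.51 and 2.29 RPKM in D387A set controls and at 28.0, 24 and 19.3 in Cflar-deficient 1xDA intestines, a log2 fold change of 3.39 (SE 0.285, adjusted p = 2.09e-08). It was at 11.3, 6.82 and 9.82 in C362A intestines against 0.828, 1.77 and 1.5 (2.77, SE 0.247). Ccl25 was the most abundant member per length in every intestinal control library. It was at 135, 133 and 126 in D387A set controls and 102, 120 and 83.8 in Cflar-deficient 1xDA intestines, and although the groups did not overlap, the log2 fold change of -0.37 (SE 0.134, adjusted p = 0.0249) did not reach the threshold. In C362A intestines Ccl25 fell from 111, 140 and 157 to 52.5, 62.3 and 57.8, a log2 fold change of -1.24 (SE 0.261, adjusted p = 0.00143). In Casp8 C362A/C362A Cflar-/- Mlkl-/- intestines it spread from 75.1 to 206 and overlapped with controls. Ccl28 was at 2.39, 1.64 and 1.5 in D387A set controls and 3.58, 2.31 and 1.29 in Cflar-deficient 1xDA intestines (log2 fold change 0.37, SE 0.344), and the groups overlapped. The gene annotation of Ccl25 shares 204 of its 7445 exonic bases with Elavl1 on the opposite strand. The deposited counts use a width of 1555 bases for Ccl25, and whether these include the shared bases was not checked. Whether counting used strand is not given in the sources used here.

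The pan-epithelial transcripts listed above summed to 1600 to 1810 RPKM in D387A set controls, 2260 to 2430 in Cflar-deficient 1xDA and 1460 to 2250 in Casp1-deficient intestines, and to 1530 to 1730 in C362A set controls, 2130 to 2660 in C362A intestines and 2390 to 2540 without Casp1. Krt8 and Krt19 were called higher in Cflar-deficient 1xDA intestines (log2 fold changes of 1.08 and 1.18), where Casp1 deletion lowered Krt19 (-1.04), and 0 of 6 were called in C362A intestines. The sums of both mutants did not overlap with those of their controls. Absorptive enterocyte transcripts (9 genes, Fabp1 and Apoa1 among them) were lower in these mutants, with 7 of 9 called lower in Cflar-deficient 1xDA and 6 in C362A intestines, and 7 called higher on deletion of Casp1 in each. They summed to 34500 to 39200 RPKM in D387A set controls, 1540 to 2980 in Cflar-deficient 1xDA, 18600 to 25100 in Casp1-deficient and 35500 to 40900 in Fadd-deficient intestines. In the C362A set they were 30200 to 49100 in controls, 14700 to 18300 in C362A intestines, 45600 to 57600 without Casp1 and 2470 to 7210 when Cflar was absent. The part of enterocytes in the levels of Ccl20, Ccl25 and Ccl28 was not tested. Mast cell transcripts (5 genes) summed to 7.42 to 8.51 in D387A set controls, 14.9 to 24.3 in Cflar-deficient 1xDA, 15.7 to 25.7 in Casp1-deficient and 4.36 to 7.43 in Fadd-deficient intestines. Fibroblast transcripts were at 698 to 773 in D387A set controls, 927 to 968 in Cflar-deficient 1xDA and 718 to 838 in Casp1-deficient intestines, with 0 of 5 called, and at 340 to 669 in C362A set controls, 368 to 478 in C362A intestines and 220 to 358 without Casp1, where Col1a1 was called lower than in controls (-1.16). Smooth muscle transcripts (4 genes) were at 2070 to 2200 in D387A set controls and 2800 to 3560 in Cflar-deficient 1xDA intestines, with 0 of 4 called, and at 1870 to 1990 without Casp1, with 1 lower. In the C362A set they were at 935 to 1680 in controls, 1200 to 1760 in C362A intestines, 558 to 1180 without Casp1 and 2010 to 2340 when Cflar was absent. Acinar transcripts (5 genes) were at 20.1 to 32.3 in D387A set controls and 4.59 to 8.32 in Cflar-deficient 1xDA intestines, with 1 of 4 tested called lower, and at 8.34 to 20.9 in C362A set controls, 6.57 to 12.6 in C362A intestines and 7.67 to 47.1 when Cflar was absent. In C362A intestines Cela1 was called lower (-1.25) and Prss2 higher (4.01). When Cflar was absent Prss2 (6.73) and Cpa1 (2.03) were called higher than in controls. The part of these cells was not tested. Stomach transcripts (5 genes) were at 0.521 to 0.839 in C362A set controls, 2.27 to 14.6 in C362A intestines, 0.601 to 3.83 without Casp1 and 2.96 to 5.72 when Cflar was absent. Of these, Gkn1, Gkn2 and Tff1 were called higher and Atp4a lower in C362A intestines, and Gkn1 and Gkn2 fell without Casp1. In the D387A set 1 Mlkl-/- embryo was at 205 and the other libraries at 0.372 to 5.88, and all 5 were called lower in Cflar-deficient 1xDA intestines, 4 of them with overlapping groups. Liver transcripts (5 genes) were at 12.7 to 228 in D387A set controls, 0.531 to 25.4 in Cflar-deficient 1xDA, 6.6 to 13.7 in Casp1-deficient and 1.75 to 1.96 in Ifnar1-deficient intestines, and at 15.6 to 67.5 in C362A set controls, 2.94 to 5.91 in C362A intestines and 10.1 to 12.4 without Casp1. Of these, 4 were called lower in Cflar-deficient 1xDA, 5 in Ifnar1-deficient and 4 in C362A intestines. The part of these cells was not tested either.

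Whether the response differed between alleles was tested as a difference of log2 fold changes in 1 fit of both intestine sets. A difference between effects was called on an adjusted p under 0.05 alone, with no threshold on its size, here and in the later comparisons of effects. Between Cflar-deficient 1xDA and C362A intestines, 1 of the 10 members differed, against 18.1% of 19643 genes. This was Ccl25, with a difference of 0.87 (SE 0.304, adjusted p = 0.0461), and the call was lost in 10 of 12 fits that left out a library and with limma-voom (adjusted p = 0.0518). Ccl5 had the next smallest p, with a log2 fold change lower by 2.28 in the 1xDA genotype (SE 0.891, adjusted p = 0.0762), and was called by DESeq2 (adjusted p = 0.0302) and with no filter (0.0189). Between Cflar-deficient 1xDA and Casp8 C362A/C362A Cflar-/- Mlkl-/- intestines none of the 10 differed by edgeR, against 0.127% of genes. Of these, 2 members, Ccl12 and Ccl20, had an unadjusted p under 0.05, a level for which the share of all genes is not given. Limma-voom found 0 members and DESeq2 found 1, Ccl20 (1.24, adjusted p = 0.0228), with 967 genes differing by DESeq2 against 25 by edgeR. Without the third Casp8 C362A/C362A Cflar-/- Mlkl-/- embryo Ccl25 differed by -0.75 (adjusted p = 0.0251), in a fit where 2987 genes differed. Within the C362A set, deletion of Cflar lowered 2 members, Ccl3 and Ccl5, against 4.62% of genes, and raised 1, Ccl25, against 1.45%, a share that was 0.775 to 3.22% without 1 library. Ccl3 went to 1.74, 2.41 and 2.00 RPKM from 5.19, 8.97 and 9.67 (log2 fold change -1.95, SE 0.278), and Ccl5 to 11.8, 13.2 and 13.5 from 32.5, 41.0 and 46.1 (-1.64, SE 0.216). The rise of Ccl25 (1.32, SE 0.262) was 0.957 without the first Casp8 C362A/C362A Cflar-/- Mlkl-/- embryo, under the threshold, and Ccl7 (0.99, SE 0.338, adjusted p = 0.0549) was called at 1.33 without the third.

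**Figure D2:**
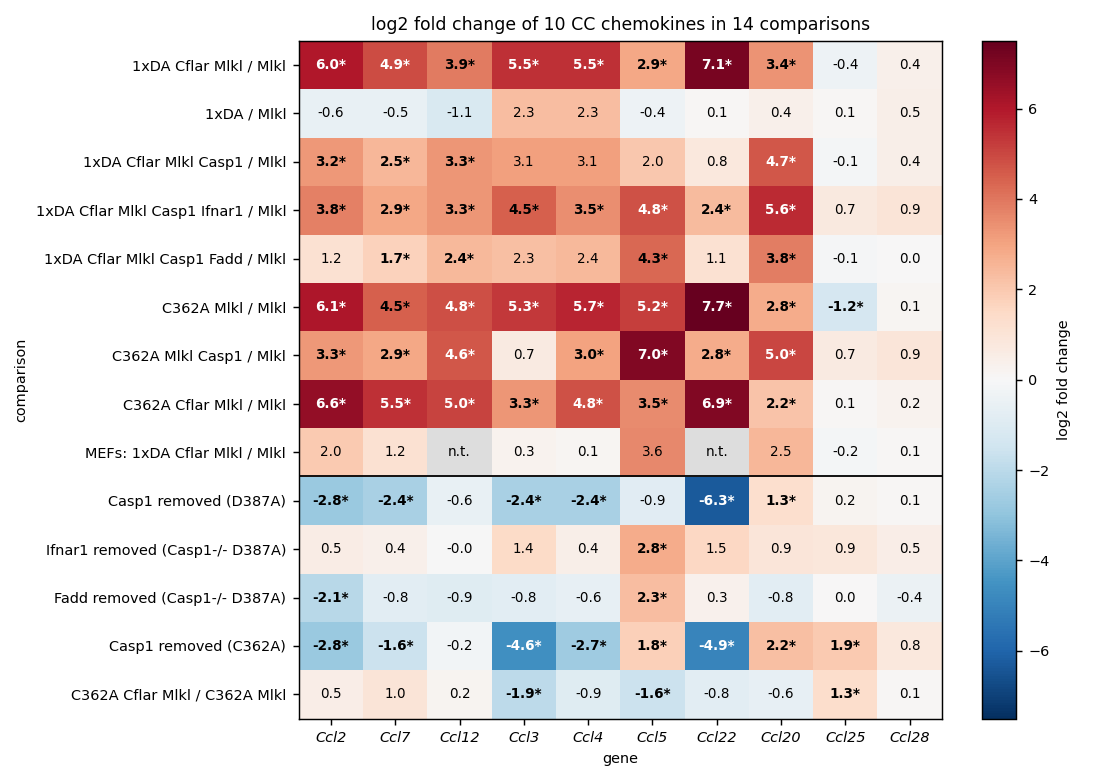
log2 fold changes of the 10 CC chemokines in 14 comparisons, by colour and number; an asterisk marks a call and n.t. a gene not tested for low counts. Rows above the line are comparisons with Mlkl-/- of the same set and rows below it compare mutant genotypes. Asterisks mark 8 of the members as higher in Cflar-deficient 1xDA intestines (top row) and no member in MEFs.

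Deletion of Casp1, which encodes the inflammatory caspase of pyroptosis, separated the members. In Cflar-deficient 1xDA intestines it lowered 5 members (Ccl2, Ccl3, Ccl4, Ccl7 and Ccl22), against 4.51% of genes called lower, and raised 1 (Ccl20), against 8.88% called higher. In C362A intestines the same 5 fell, against 5.72% of genes, and 3 rose (Ccl5, Ccl20 and Ccl25), against 5.6%. Ccl12 and Ccl28 were called in neither, although Ccl28 in the C362A genotype (0.76, SE 0.313, adjusted p = 0.0754) was called at 1.07 without the third C362A embryo. The median log2 fold change over the members was -1.64 in the 1xDA and -0.90 in the C362A genotype, with 0.029 and -0.021 over all genes. Without the third Casp1-deficient embryo the former was -2.63. Neutrophil transcripts fell with the same deletion in both genotypes, as given above. Of T and NK cell transcripts, 3 of 5 tested fell in the 1xDA and 2 of 7 in the C362A genotype. Their sums in the C362A genotype were 17.6 to 24.4 RPKM with Casp1 and 3.96 to 4.62 without it. Of 9 macrophage and monocyte transcripts, 3 fell and 2 rose in the 1xDA genotype, and 5 fell in the C362A genotype. Of dendritic cell transcripts, 0 of 3 tested fell in the 1xDA and 3 of 4 in the C362A genotype. The part of these cells was not tested.

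Ccl22 showed the largest fall. In Cflar-deficient 1xDA intestines it was at 0.0615, 0 and 0.151 RPKM without Casp1 against 4.95, 3.37 and 8.93 with it, a log2 fold change of -6.32 (SE 0.529, adjusted p = 5.67e-08) that became -7.44 without the third Casp1-deficient embryo. In C362A intestines it was at 0.399, 0.131 and 0.0922 against 8.24, 6.33 and 4.96 (-4.95, SE 0.435, and -5.84 without the first Casp1-deficient embryo). Ccl2 was at 6.21, 4.37 and 11 without Casp1 in the 1xDA genotype and at 3.81, 5.68 and 2.92 in the C362A genotype, with a log2 fold change of -2.80 in each (SE 0.284 in each). Ccl7 was at 1.48, 1.74 and 4.94 without Casp1 in the 1xDA genotype (-2.40, SE 0.348, and -3.15 without the third embryo) and at 1.81, 3.38 and 3.47 in the C362A genotype (-1.6, SE 0.367). The levels of Ccl2 and Ccl7 remained above controls, and both genes were still called higher than in Mlkl-/- in both Casp1-deficient genotypes. Ccl22 in the Casp1-deficient 1xDA genotype overlapped with controls and was not called against them (0.81, adjusted p = 0.641, and -0.30 without the third embryo). Ccl12, at 11.9, 10.8 and 20.2 without Casp1 in the 1xDA genotype, overlapped with the Casp1-sufficient libraries (-0.56, SE 0.276, adjusted p = 0.104), and in the C362A genotype it was at 16.9, 23.2 and 19.9 (-0.19, SE 0.246). Of the neighbouring ligands of CCR2, Ccl12 was thus the member not called.

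Ccl3 and Ccl4 fell to few reads. Without Casp1 the 1xDA libraries held 12 reads of each, against 72 with it, with log2 fold changes of -2.42 (SE 0.547) and -2.42 (SE 0.586). That of Ccl3 became -3.10 without the third Casp1-deficient embryo. In the C362A genotype Ccl3 was at 0.262, 0.489 and 0.213 RPKM (-4.61, SE 0.355), overlapped with controls and was not called against them, and Ccl4 was at 0.609, 0.441 and 0.495 (-2.67, SE 0.357).

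Ccl20 rose with the deletion in both genotypes, and Ccl5 and Ccl25 in the C362A genotype. Ccl20 was at 40.5, 40.8 and 90.7 RPKM without Casp1 against 28.0, 24 and 19.3 with it in the 1xDA genotype, a log2 fold change of 1.27 (SE 0.229, adjusted p = 0.000224). In the C362A genotype it was at 38.4, 48.6 and 44.9 against 11.3, 6.82 and 9.82 (2.24, SE 0.217). In neither genotype did the groups overlap. Without the third Casp1-deficient 1xDA embryo, the log2 fold change of Ccl20 was 0.78 (adjusted p = 5.16e-05), under the fold threshold. Ccl5 was at 154, 168 and 95.3 without Casp1 in the C362A genotype, against 32.5, 41.0 and 46.1 with it (1.80, SE 0.207, adjusted p = 1.82e-05). In the 1xDA genotype it was at 2.14, 1.61 and 15.4 against 9.66, 10.1 and 14.9, with a log2 fold change of -0.87 (SE 0.563, adjusted p = 0.219) that became -2.62 (adjusted p = 7.38e-05) without the third embryo and was called lower by limma-voom (-1.61, adjusted p = 0.0398). Ccl25 was at 244, 212 and 206 without Casp1 in the C362A genotype against 52.5, 62.3 and 57.8 with it (1.94, SE 0.266), and at 98.8, 110 and 148 against 102, 120 and 83.8 in the 1xDA genotype (0.22, SE 0.134).

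The effect of Casp1 deletion differed between the 1xDA and C362A genotypes for 4 of the 10 members, against 16.9% of 19643 genes. The difference was -2.65 for Ccl5 (SE 0.640, adjusted p = 0.00654) and -1.69 for Ccl25 (SE 0.306, adjusted p = 0.000735), the 1xDA minus the C362A effect on the log2 scale, and these calls held in all 12 fits that left out a library. The differences for Ccl3 (2.21, adjusted p = 0.0442) and Ccl20 (-0.95, adjusted p = 0.0414) were smaller relative to their SE of 0.753 and 0.319, and each of these 2 calls was lost in 8 of those fits. Limma-voom did not call Ccl3 (adjusted p = 0.0588). Without the third Casp1-deficient 1xDA embryo the differences were -4.39 for Ccl5, -1.87 for Ccl25, -1.43 for Ccl20 and -1.52 for Ccl7, all called, and 1.53 for Ccl3 (adjusted p = 0.258).

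**Figure D3:**
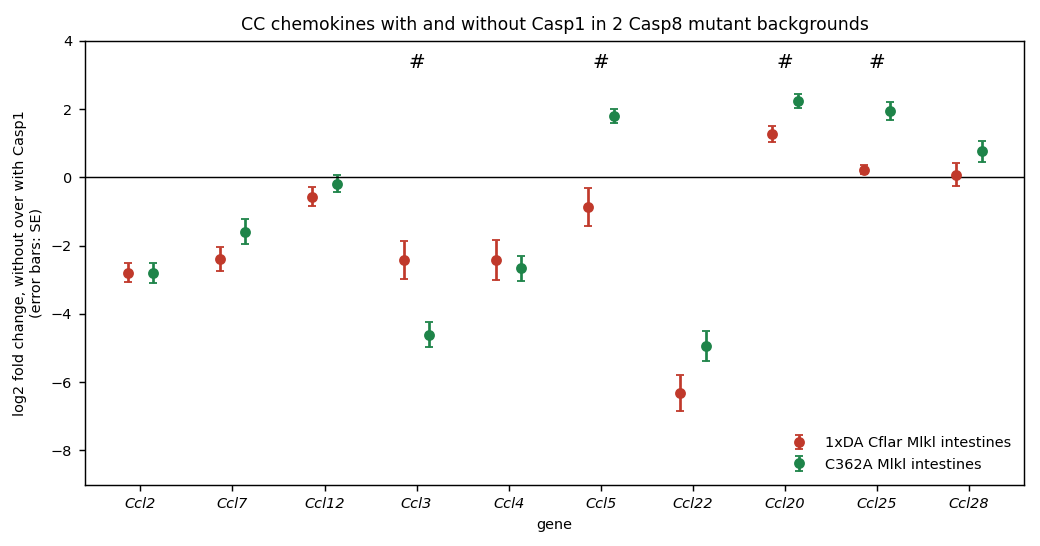
log2 fold change of each CC chemokine on deletion of Casp1 in Cflar-deficient 1xDA intestines (red) and in C362A intestines (green), with SE as error bars and 3 libraries per group. A hash marks the 4 members whose effects differed between the genotypes; Ccl5 is at -0.87 in red and 1.80 in green.

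Against controls, Casp8 1xDA/1xDA Cflar-/- Mlkl-/- Casp1-/- intestines had 4 members higher (Ccl2, Ccl7, Ccl12 and Ccl20), with 2.16% of genes called higher (1.32% without the third embryo) and 2.18% lower, and the count became 7 without the second embryo of that genotype, when Ccl3, Ccl4 and Ccl5 passed and 2.73% of genes were called higher. Ccl5 was at a log2 fold change of 2.01 (SE 0.719, adjusted p = 0.0554), was called without the first embryo as well (2.43), by DESeq2 (adjusted p = 0.0253) and with no filter (0.00461), and was at 0.26 without the third. Without that embryo the log2 fold change of Ccl7 went from 2.52 to 1.77 and was still called. Casp8 C362A/C362A Mlkl-/- Casp1-/- intestines had 7 higher (all but Ccl3, Ccl25 and Ccl28), with 6.79% of genes called higher and 3.73% lower. The call of Ccl22 (2.78, SE 0.813, and 4.26 without the first Mlkl-/- embryo) was lost without the second Mlkl-/- or the first Casp1-deficient embryo (adjusted p of 0.064 and 0.111), and Ccl28 (0.90, SE 0.315) was called at 1.07 without the third Casp1-deficient embryo. Neither Ccl28, at 4.31, 3.03 and 2.33 RPKM against 1.58, 1.90 and 1.68, nor Ccl25, at 244, 212 and 206 against 111, 140 and 157, overlapped with controls there, and the log2 fold change of Ccl25 was 0.70 (SE 0.258, adjusted p = 0.0476). Ccl5 had the largest change there, a log2 fold change of 6.96 (SE 0.292), and Ccl20 followed at 5.0 (SE 0.258). In 1xDA intestines without Casp1 the largest was that of Ccl20, 4.66 (SE 0.288).

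Loss of Ifnar1, a subunit of the type I interferon receptor, was compared with Casp8 1xDA/1xDA Cflar-/- Mlkl-/- Casp1-/- intestines that kept it. It raised 1 of 10 members, Ccl5, against 3.28% of genes (1.94% and 1.78% without the first and the second Casp1-deficient embryo). Ccl5 was at 30.2, 41.2 and 58.7 RPKM without Ifnar1 against 2.14, 1.61 and 15.4 with it, and the groups did not overlap (log2 fold change 2.77, SE 0.555, adjusted p = 0.00197). Without the third Casp1-deficient embryo the log2 fold change was 4.53, and 7 members were called higher (Ccl3, Ccl5, Ccl7, Ccl20, Ccl22, Ccl25 and Ccl28), against 6.06% of 18690 genes. Limma-voom called Ccl20 as well (1.03) and DESeq2 Ccl22 (1.58). When the fit held only the compared groups, 0 were called, with Ccl5 at an adjusted p of 0.0554, and without the first Ifnar1-deficient embryo Ccl20 was also called (1.02). Ccl20 was at 94.5, 121 and 111 against 40.5, 40.8 and 90.7 (0.93, SE 0.223, adjusted p = 0.00581), and Ccl25 at 208, 239 and 207 against 98.8, 110 and 148 (0.88, SE 0.135, adjusted p = 0.000481). These groups did not overlap either, and both changes were under the fold threshold. Ccl2 was at 7.83, 9.98 and 13.5 and Ccl12 at 8.85, 15.9 and 17.9, each overlapping with the Ifnar1-sufficient libraries. Acinar transcripts summed to 5.45 to 7 RPKM with Ifnar1 and 14.5 to 35 without it, and 3 of 4 tested were called higher (Prss2, Cel and Cpa1). Of 5 liver transcripts, 2 were called lower, Serpina1a (-2.06) and Fgb (-1.57). Macrophage and monocyte transcripts summed to 122 to 191 with Ifnar1 and 204 to 262 without it, with 1 of 9 called higher. The part of these cells was not tested. Against Mlkl-/- controls, 8 members were higher in the Ifnar1-deficient intestines, where 6.76% of genes were called higher and 5.64% lower. Ccl4 and Ccl22 were close to the threshold. Leaving out the first or second Mlkl-/- embryo or the second Ifnar1-deficient embryo took away the call of Ccl4 (adjusted p of 0.069, 0.0656 and 0.0557), and leaving out the first or the third Mlkl-/- embryo or the third Ifnar1-deficient embryo took away that of Ccl22 (0.116, 0.102 and 0.0881). Limma-voom did not call Ccl22 either (0.092). Ccl25 was at 208, 239 and 207 against 135, 133 and 126 (0.73, SE 0.134, adjusted p = 0.000285) and Ccl28 at 3.78, 3.34 and 3.52 against 2.39, 1.64 and 1.5 (0.94, SE 0.341, adjusted p = 0.0301), without overlap and under the fold threshold. Without the first Mlkl-/- embryo Ccl28 was called (1.17). When only those groups were fitted, Ccl3, Ccl4 and Ccl22 did not pass the filter on low counts and 5 members were called.

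Loss of Fadd, the adaptor that recruits caspase-8 to death receptors, lowered Ccl2 and raised Ccl5 relative to the same Casp1-deficient intestines, against 0.877% of genes called lower and 2.56% called higher (1.7% without the first and 3.96% without the third Casp1-deficient embryo). Beside these, all 4 mast cell transcripts tested were called lower (Cpa3, Cma1, Mcpt4 and Tpsb2, log2 fold changes of -1.50 to -2.34), and 1 of 9 macrophage and monocyte transcripts (Lyz2), whose sum was 116 to 120 RPKM without Fadd and 122 to 191 with it. The part of these cells was not tested. Ccl2 was at 2.01, 1.84 and 1.24 RPKM without Fadd against 6.21, 4.37 and 11 with it (log2 fold change -2.07, SE 0.333, adjusted p = 0.00046). Ccl5 was at 37.0, 39.5 and 17.6 against 2.14, 1.61 and 15.4 (2.31, SE 0.553, adjusted p = 0.00835), and at 4.06 without the third embryo. In neither case did the groups overlap, although the lowest Fadd-deficient library of Ccl5 lay close to the third Fadd-sufficient embryo. Ccl20 was at 31.8, 30.3 and 35.3 against 40.5, 40.8 and 90.7 (-0.82, SE 0.226, adjusted p = 0.0186) and Ccl12 at 6.51, 9.33 and 6.95 against 11.9, 10.8 and 20.2 (-0.91, SE 0.291, adjusted p = 0.0393), both under the fold threshold. Leaving out the first or the second Fadd-sufficient embryo brought these changes just past it, and 4 members were then called. Ccl12 was also called without the second Fadd-deficient embryo (-1.08), and with only the compared groups in the fit Ccl5 was not called (adjusted p = 0.107). Against Mlkl-/- controls 4 members were called higher (Ccl5, Ccl7, Ccl12 and Ccl20), with 2.81% of genes called higher and 0.975% lower. The call of Ccl7 (log2 fold change 1.74, SE 0.526) was lost when the first or second embryo of either group was left out (adjusted p from 0.0651 to 0.115) and with limma-voom (0.0559). Ccl2 was at 0.930, 1.03 and 0.308 in those controls, below every Fadd-deficient library, and its log2 fold change of 1.17 (SE 0.448, adjusted p = 0.0821) was not called. DESeq2 called it (1.18, adjusted p = 0.0162), as did edgeR with no filter (0.0265) and with only those groups (0.0482). The comparisons on loss of Casp1, Ifnar1 and Fadd in the 1xDA genotype share the Casp1-deficient libraries.

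Within the D387A set the groups had different orders for different members. For Ccl2 the order of means was Cflar-deficient 1xDA (49.8 RPKM), the Ifnar1-deficient (10.4) and Casp1-deficient (7.18) genotypes, whose libraries overlapped, the Fadd-deficient genotype (1.70), and then Mlkl-/- (0.757) and Casp8 1xDA/1xDA (0.499), which overlapped. For Ccl20 it was the Ifnar1-deficient (109), Casp1-deficient (57.3), Fadd-deficient (32.5) and Cflar-deficient 1xDA genotypes (23.8), then Casp8 1xDA/1xDA (2.93) and Mlkl-/- (2.26), and no 2 neighbours in this order overlapped. For Ccl5 the Ifnar1-deficient (43.4) and Fadd-deficient (31.4) genotypes came first and overlapped, followed by Cflar-deficient 1xDA (11.5) and Casp1-deficient (6.38) intestines, which also overlapped. Without the third Casp1-deficient embryo that mean was 1.87, and the remaining libraries lay below every Cflar-deficient 1xDA library. Ccl22 was above 1 RPKM in Cflar-deficient 1xDA intestines and in no other group of the set.

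In MEFs, where Casp1 was at 0.344 to 0.503 RPKM, 8 of the 10 members passed the filter on low counts, and edgeR called 0 of them in Cflar-deficient 1xDA MEFs, against 0.0711% of 15465 genes called higher (as few as 0.0129% without 1 library). Of the 8 tested, 4 (Ccl2, Ccl5, Ccl7 and Ccl20) had an unadjusted p under 0.05, all with higher levels in the mutant. The share of all genes at that unadjusted level is not given here, so the count of 4 is not set against it. Ccl2 was at 31.7, 57.3 and 73.2 in Mlkl-/- MEFs and 129, 254 and 243 in Cflar-deficient 1xDA MEFs, and the groups did not overlap (log2 fold change 1.96, SE 0.329, adjusted p = 0.129). Ccl7 was at 21.2, 45.2 and 53.8 against 48.7, 103 and 116 (1.17, SE 0.381, adjusted p = 0.657), with an overlap between the groups. Library 1 was the lowest of its group for both genes in both genotypes. Ccl20 was at 0.327, 0.554 and 0.231 against 2.69, 1.80 and 1.86 (2.47, SE 0.350, adjusted p = 0.0668). Ccl5 was at 0.408, 0 and 0.176 against 2.66, 2.75 and 2.32, from 9 reads to 98 (3.63, SE 0.636, adjusted p = 0.143). For these last genes every mutant library lay above every control.

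These calls in MEFs depended on the method. The labels do not say which MEF libraries belong together. Same-numbered libraries were taken as pairs because the 3 correlations of their deviations in these data ranged from 0.231 to 0.381. With the replicate number as a block 3 members were called, Ccl2 (1.97, adjusted p = 8.04e-05), Ccl7 (1.17, adjusted p = 0.000227) and Ccl20 (2.50, adjusted p = 0.0375). These adjusted p-values rest on a pairing chosen from the same data. DESeq2 also called 3, Ccl2, Ccl5 (3.69, adjusted p = 0.000244) and Ccl20, and limma-voom called 0. With no filter edgeR called 4, Ccl2, Ccl5 (adjusted p = 0.00126), Ccl7 (0.0106) and Ccl20, against 0.155% of genes called higher. Without the first Cflar-deficient 1xDA library edgeR called Ccl2 (2.21, adjusted p = 0.0469). Ccl3 was at 1.21, 1.03 and 1.28 against 1.31, 1.97 and 0.984 and Ccl4 at 0.892, 0.647 and 0.781 against 0.622, 1.29 and 0.675, with overlapping groups and log2 fold changes of 0.26 and 0.14. Ccl25 (0.851 to 1.55 RPKM) and Ccl28 (0.0244 to 0.202) also overlapped. Ccl12 (0.440 to 0.638) and Ccl22 (13 reads in Mlkl-/- and 1 in the mutant) were not tested. Beside the levels of Ccl2, the summed macrophage and monocyte transcripts were at 38.6 to 47.5 RPKM in Mlkl-/- and 109 to 140 in Cflar-deficient 1xDA MEFs, with 1 of 8 tested called. The median log2 fold change over those 8 was 0.34, so the rise of the sum was not that of the list as a whole. Neutrophil transcripts were at 0.116 to 1.79. The part of such cells in the MEF levels was not tested.

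**Figure D4:**
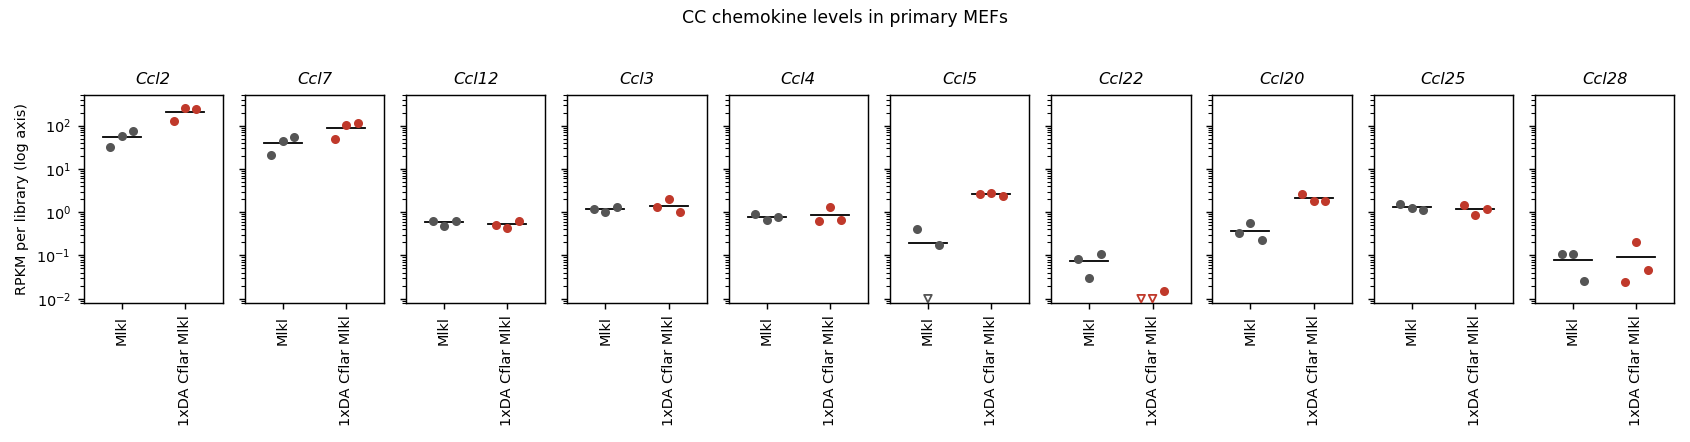
RPKM of each of the 10 CC chemokines in the 6 MEF libraries, on a log axis, with means as black bars and libraries without a read as open triangles. Ccl2, Ccl5 and Ccl20 have all 3 Cflar-deficient 1xDA libraries above all 3 Mlkl-/- libraries; Ccl22 has the opposite order with 14 reads in all.

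The effect of the Cflar-deficient 1xDA genotype was compared between intestines and MEFs in 1 fit of 24 libraries, where 38.4% of 18862 genes differed. Of the 8 members tested in both sources 4 differed, Ccl2, Ccl3, Ccl4 and Ccl7, and each had the higher log2 fold change in intestines. Ccl12 and Ccl22 passed the filter in intestines only and are not compared. The difference was 4.11 for Ccl2 (SE 0.564, adjusted p = 6.16e-06), 5.26 for Ccl3 (7.28 without the first Mlkl-/- intestine), 5.39 for Ccl4 (7.39 without the third) and 3.78 for Ccl7. The difference for Ccl20 was 0.97 (SE 0.551, adjusted p = 0.178) and for Ccl5 -0.71 (SE 1.28, adjusted p = 0.722), neither past the threshold. The order of members per length was unlike between the sources. Ccl25 led in intestinal controls (111 to 157 RPKM), and Ccl2 (31.7 to 73.2) and Ccl7 (21.2 to 53.8) led in control MEFs, where Ccl25 was at 1.11 to 1.55.

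The receptors were followed in the same libraries as a list of 14 genes, 11 of them tested in each intestine set. In Cflar-deficient 1xDA intestines 7 rose, against 9.4% of all genes, and 0 fell, and in C362A intestines 8 rose, against 10.4%, and 0 fell, with median log2 fold changes of 1.66 and 1.36 over the tested receptors and -0.0065 and 0.018 over all genes. Deletion of Casp1 lowered 7 in the 1xDA genotype, against 4.51% of genes, and 7 in the C362A genotype, against 5.72%, and raised 1 in the former, Ccrl2, against 8.88%. Ccr7, the receptor of dendritic cells and T cells bound for lymph nodes, had the largest change in both genotypes, at 2.99, 1.81 and 4.38 RPKM in Cflar-deficient 1xDA intestines against 0.204, 0.106 and 0.152 in controls (log2 fold change 4.29, SE 0.353). Without Casp1 it was at 0.0919, 0.114 and 0.169 (-4.60), overlapping with controls. Ccr4, the receptor of Ccl22, was at 10.8, 9.39 and 6.87 in Cflar-deficient 1xDA intestines against 1.78, 1.21 and 0.894 in controls (2.80), and at 4.19, 3.35 and 5.95 without Casp1 (-1.01).

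Ccr1, a receptor of Ccl3 and Ccl5, rose by 1.66 on the log2 scale in Cflar-deficient 1xDA and by 2.83 in C362A intestines. Ccr2, the receptor of Ccl2, Ccl7 and Ccl12, rose in C362A intestines (2.77, 4.63 and 3.07 RPKM against 0.669, 0.779 and 0.722 in controls, log2 fold change 2.27) but was at 0.402, 0.489 and 0.881 against 0.612, 0.552 and 0.718 in Cflar-deficient 1xDA intestines (-0.081, SE 0.253). The difference between these changes was not tested. Ccr6, the receptor of Ccl20, stayed between 0 and 0.351 RPKM in all intestinal libraries, passed the filter only in the C362A set and was called in no comparison. Ccr9, the receptor of Ccl25, was at 0.0464 to 0.491 and Ccr10, the receptor of Ccl28, at 0 to 0.105. The atypical receptor Ccrl2, which binds chemerin, was called higher than controls in every mutant intestine except Casp8 1xDA/1xDA, from 0.795 to 1.5 in controls of both sets to 39.9, 57.4 and 45.7 in C362A intestines without Casp1 (log2 fold change 5.50) and 26.4, 31.0 and 30.6 in 1xDA intestines without Casp1 and Fadd (4.77). In MEFs 4 receptors were tested and 0 were called by edgeR.

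Of 11 other CC ligands, 6 were tested in the D387A set and 7 in the C362A set. In Cflar-deficient 1xDA intestines 0 fell and 3 rose, against 9.4% of all genes, Ccl8, a gene of the Ccl2 cluster (log2 fold change 5.68), Ccl6 (1.43) and Ccl9 (1.38). In C362A intestines 0 fell and 4 rose, against 10.4% of all genes, Ccl8 (6.04), Ccl17, the other ligand of CCR4 (4.59), the eosinophil attractant Ccl24 (2.78) and Ccl6 (1.09). With Casp1 deleted, Ccl8 and Ccl24 fell in both genotypes (-3.17 and -2.28 in the 1xDA, -3.80 and -4.10 in the C362A genotype), and Ccl17 fell in the C362A genotype (-3.30). These were 2 of 6 and 3 of 7 tested, against 4.51% and 5.72% of genes called lower, and 0 rose. Ccl24 was then below Mlkl-/- controls in both (-1.55 and -1.31), and it was also below them in the Ifnar1-deficient (-2.03) and Fadd-deficient (-1.95) intestines. Ccl19 and Ccl26 had no read in any library. In MEFs 3 of the 11 were tested and 0 were called by edgeR.

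Across the 30 intestinal libraries, with each taken as its log2 difference from the mean of its own controls, the members were not all alike. These correlations describe libraries that share genotypes and controls. Ccl2 and Ccl7 were alike (Pearson r = 0.972), and Ccl2, Ccl3, Ccl4, Ccl7 and Ccl22, chosen here as the members that fell without Casp1, had pairwise r from 0.754 to 0.972. Ccl12 had r of 0.877 with Ccl2 and 0.889 with Ccl7, and 0.629 to 0.748 with Ccl3, Ccl4 and Ccl22. Ccl20 had r of 0.0935 with Ccl22 and 0.745 with Ccl5, and Ccl25 had r of -0.614 with Ccl3. Of 18195 genes compared, those most like Ccl5 were H2-T22 (0.977), B2m (0.977) and H2-D1 (0.976), which encode parts of MHC class I molecules. Those most like Ccl22 were C1ra, Ccr7 and Serping1 (0.976 to 0.977), and those most like Ccl20 were H2-M2 (0.972), Klhl25 (0.917) and Arhgap8 (0.909). Those most like Ccl2 were Apobec3, Clec4n and Adpgk (0.977 to 0.981), most like Ccl7 were Ccl2, Nop56 and Adpgk (0.967 to 0.972), and most like Ccl12 were Sprr1a, Nle1 and Mak16 (0.942 to 0.951). For Ccl3 they were Gm5416, Clec4d and Apobr (0.958 to 0.966) and for Ccl4 Pla2g4c, Cd300lf and Clec4e (0.954 to 0.961). Ccl25 was most like Gm11735, Gsta3 and Cyb5a (0.843 to 0.873) and Ccl28 like Nlrc4, BC018473 and Cyp4f14 (0.716 to 0.777).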

How the data were processed

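RNA was sequenced as single-end reads from 30 E18.5 intestines and 6 MEF libraries. The authors aligned reads with GSNAP to GRCm38 (mm10) and deposited, per the file headers, a count of uniquely mapped reads per gene together with an RPKM value. The deposited RPKM equalled the count over gene width and the authors' library total, of which reads on genes made up 75.64 to 88.6%, and served only for that check. The counting program, annotation and strand setting are not given in the sources used here, and labels and methods name different library kits and instruments.

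Counts were tested with edgeR 4.0.16 (R 4.3.3; quasi-likelihood, TMM, filterByExpr with a minimum count of 10, prior count 0.125), each set fitted with all of its groups and p-values adjusted over all genes. SE is the log2 fold change over the root of F. Differences between sets were interaction terms in joint fits of 30 or 24 libraries, called on adjusted p alone. Code was tested on simulated data. Alternatives were limma-voom 3.58.1, DESeq2 1.42.0, RLE factors, no filter, a prior count of 2, only the compared groups, a replicate block and leaving out each library. Replicate numbers from the labels were taken as pairs where all 3 correlations of deviations exceeded 0.1, a choice made from these data and not from known litters. This held for MEFs (0.231 to 0.381) and for Casp8 1xDA/1xDA against Mlkl-/- (0.166 to 0.249). The labels call the libraries biological replicates, and p-values measure the spread between these libraries. The study describes Mlkl-/- intestines as littermates for some comparisons, without tying single libraries to litters. It does not do so for Casp8 1xDA/1xDA or for the genotype lacking Casp1 and Fadd. Its counts of offspring come from intercrosses on separate backgrounds, with Casp1, Ifnar1 or Fadd also deleted. The cross of each sequenced embryo is not given, so in these comparisons litter and colony cannot be told apart from genotype. Replicate pairs differed by at least 5.34 times the variance of counting, hence no library was counted as a duplicate. Intervals cover counting error only.

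The 10 members and the lists of receptors, other ligands and cell markers were chosen with earlier results of these data known. All members are named. From other lists, up to 4 called genes with the largest change, and the receptors of members, are named, except for items not reported here. For each member the 3 genes with the highest correlation of log2 CPM are named.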

Additional observations from a re-analysis of the deposited data

Results flagged for a closer look

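The tests of a difference between effects singled out 9 values, all differences of log2 fold changes. In the comparisons below, in their order, 16.9%, 18.1% and 38.4% of all genes differed, beside 4 of 10, 1 of 10 and 4 of 8 members tested. For the effect of Casp1 deletion, in Cflar-deficient 1xDA minus C362A intestines, these were 2.21 for Ccl3, -2.65 for Ccl5, -0.95 for Ccl20 and -1.69 for Ccl25. The third Casp1-deficient 1xDA embryo had the highest Ccl5, Ccl20 and Ccl25 of its group, and without it the values were 1.53, -4.39, -1.43 and -1.87. For the genotype effect itself, Cflar-deficient 1xDA minus C362A intestines, the value was 0.87 for Ccl25, and 10 of 12 fits without 1 library no longer called it. For the effect of the Cflar-deficient 1xDA genotype in intestines minus MEFs, the values were 4.11 for Ccl2, 5.26 for Ccl3, 5.39 for Ccl4 and 3.78 for Ccl7. Those of Ccl3 and Ccl4 rest on 1 read each in control intestines, so their size is poorly determined. The comparison of intestines with MEFs also differs in age of the embryo and in culture, which cannot be told apart from the source.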

How the results depend on the processing

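Of 2414 values of members under alternatives, 2320 kept their side of the threshold, 47 no longer passed it and 47 newly passed it. In 74 values the sign turned, of which 0 were called in either fit. Of 18 counts of members, 10 moved by at most 1.5 times under every alternative. For loss of Ifnar1 in Casp1-deficient 1xDA intestines the 1 call became 2 with limma-voom, 2 with DESeq2 and 0 with only the compared groups, and 1 to 7 without 1 library. For the Ifnar1-deficient genotype against Mlkl-/- the count of 8 became 5 with only those groups, where 3 members failed the filter. For loss of Fadd the count of 2 became 1 with only the compared groups and 2 to 4 without 1 library. For Casp1-deficient 1xDA against Mlkl-/- it was 4, and 4 to 7 without 1 library. In MEFs the count of 0 became 3 with DESeq2, 4 with no filter, 3 with the replicate block and 0 to 1 without 1 library. The replicate block left the count of 0 in Casp8 1xDA/1xDA intestines as it was. Between Cflar-deficient 1xDA and C362A intestines the 1 difference became 0 with limma-voom, 2 with DESeq2, 2 with no filter, 0 with the replicate block and 0 to 1 without 1 library. Between the Cflar-deficient genotypes the 0 became 1 with DESeq2, 1 with no filter and 0 to 1 without 1 library, and for Casp1 deletion the 4 became 2 to 4. The causes were not tested. Over all genes, the 11 calls in MEFs became 36 with DESeq2, 45 with no filter, 19 with the replicate block and as few as 2 without 1 library. The 1 call in Casp8 1xDA/1xDA became 3, 14 and 7 with DESeq2, no filter and only those groups. With only the compared groups, 796 calls for Casp1-deficient 1xDA against Mlkl-/- became 456, 975 for loss of Ifnar1 became 411 and 631 for loss of Fadd became 322. The 975 also became 1740 without the third Casp1-deficient embryo, and 629 and 582 without the first and second. For Casp1 deletion, the 3322 genes that differed became 2207 and 2187 without the second Cflar-deficient 1xDA or the second Casp1-deficient embryo, and the 3559 between Cflar-deficient 1xDA and C362A intestines 2208 without the first C362A set control. The 25 genes that differed between the Cflar-deficient genotypes became 14 with limma-voom, 967 with DESeq2, 209 with no filter and 0 to 2987 without 1 library. Depth limits Ccl3, Ccl4 and Ccl22, with 1 to 12 reads in intestinal control groups.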
